A study of Mus musculus with 4 samples.

Results

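The cytosolic ribosomal protein genes were taken from the gene table of 4 single-cell libraries as the symbols that begin with Rpl or Rps and a digit or with Rplp and a digit, together with Rpsa, without the Rps6k kinase genes and without names that contain -ps. The rule found 86 of 32285 genes, and no measured value entered it. Of these, 8 were listed apart as paralogs, near copies or a gene that shares only its name. They are Rpl3l, Rpl7l1, Rpl10l, Rpl22l1, Rpl39l, Rps27l, Rps27rt and Rps19bp1, the last of which encodes a protein that binds a ribosomal protein. The 78 others include Rpl36al, a paralog of Rpl36a that this list leaves out. They had between 84328 and 988776 unique molecular identifiers (UMIs, which count captured transcripts) over all kept cells. Of the 8, Rpl10l had 0 UMIs.

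A ribosome is built from ribosomal RNA and one copy of most ribosomal proteins, so the genes of the small (Rps) and large (Rpl) subunit are expressed in near balance in most cells. Their mRNAs begin with a short tract of pyrimidines at the start site, the terminal oligopyrimidine (TOP) motif, through which the mTOR pathway and the protein Larp1 control their translation together. Resting lymphocytes keep a large stock of these small mRNAs relative to their other transcripts, mature neutrophils keep few, and red cells dismantle their ribosomes as they mature from reticulocytes.

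The libraries came from CD45-enriched cells of the lungs and of the blood of female C57/Bl6 mice aged 6 to 8 weeks. In the metastasis arm 800000 B16F10 cells, a mouse melanoma line, were put into the spleen on day 0, and in the sham arm saline was. Mice of both arms then lost the spleen. All carried a subcutaneous tumour grown from 250000 cells of the same line, and organs were collected on day 7. Each tissue and arm had 1 library, and the sources used here do not state how many mice it held, so no difference below has a replicate check, no p-value was computed, and every 95% interval covers counting error only.

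Values are given in the order metastasis and sham in lung, then metastasis and sham in blood. The libraries held 12969, 13443, 8483 and 12274 kept cells, with a median of 3051 to 4724 UMIs per cell. Haemoglobin genes took 63.4%, 24.2%, 61.4% and 10.4% of their UMIs, so every share below is of UMIs without haemoglobin genes and CPM stands for UMIs per 1000000 such UMIs. Between 212 and 292 kept barcodes of each library also occurred in another library. Cells were put in a class when they held UMIs of at least 4 markers of only 1 leukocyte or tissue list. Cells that reached 4 in several lists of 1 lineage took the list with at least 2 more markers than the next. Other cells that reached several lists stayed ambiguous. Cells that reached none were erythroid-like with at least 50% haemoglobin UMIs, and otherwise platelet-like with 4 or more platelet markers. The rule was set after values had been seen, and each class is a range of a per-cell score, called by the class's name with "-like". In neutrophil-like cells 10, 1, 6 and 5 cells stood just inside it with 4 markers, and 42, 19, 54 and 27 barcodes just outside it with 3. All markers of a class were at 20 CPM or more in each of the 32 pairs of class and library with at least 50 cells. The gate used those same markers, so their levels are no separate check of the labels.

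The 5′ ends of the genes are shown first, because a shared start motif is what the set is known for. RefSeq entries on GRCm38.p6 matched 66 of the 86 members. Each line gives 12 bases before the annotated start and 18 from it, 5′ to 3′ on the transcribed strand, with CTTTC in capitals. The lines are examples. The first 7 genes, which include the near copy Rps27rt, hold the motif in this window, and the last 3, all paralogs, do not. The motif does not divide paralogs from other members. Many members outside the paralog list, such as Rps6, Rpl5, Rpl11, Rplp0 and Rps9, lack it in this window, and the paralog Rpl39l holds it.
Rplp2, chr7:141447639-141447668 (+): gtcagcgtcttcCTTTCgccgccggacgcc
Rpl38, chr11:114668568-114668597 (+): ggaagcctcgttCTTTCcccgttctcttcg
Rps27, chr3:90213631-90213660 (-): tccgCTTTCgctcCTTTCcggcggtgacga
Rps27rt, chr9:114982722-114982751 (-): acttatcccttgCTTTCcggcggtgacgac
Rpl35, chr2:39005114-39005143 (-): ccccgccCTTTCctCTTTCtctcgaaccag
Rpl28, chr7:4792953-4792982 (+): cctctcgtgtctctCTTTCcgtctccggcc
Rpl18, chr7:45718059-45718088 (+): gtctcgcaggccgctCTTTCcccgcccact
Rpl3l, chr17:24727814-24727843 (+): tgttctagctctgtcatttgacctctggtg
Rps27l, chr9:66946074-66946103 (+): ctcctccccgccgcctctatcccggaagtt
Rpl22l1, chr3:28805496-28805525 (+): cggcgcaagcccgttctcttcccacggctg

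Within 50 bases either side of the start, CTTTC stood on the transcribed strand in 34 of the 66 matched members (51.5%), against 14.6% of 27025 genes. On the other strand the shares were 13.6% and 13.8%, so the difference from other genes was seen on the strand that is transcribed. CTTTC was 1 of 8 overlapping pyrimidine strings that were counted. Of the other 7, TTTCC was as frequent in members (51.5% against 16.6%), and CTTTT was found in 22.7% of members against 12.6% of genes. The counts describe letters near annotated starts and say nothing of translation, which was not measured.

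The share of UMIs that came from the set differed more between cell classes than between libraries, and T cell-like, B cell-like and neutrophil-like cells stood in the same order in all 4 libraries. T cell-like cells stood highest, with 33.7%, 34.6%, 37.8% and 36.5%. B cell-like cells followed with 22.4%, 21.5%, 23.4% and 22.7%, and neutrophil-like cells had the lowest pooled share in each library, with 2.88%, 2.78%, 3.99% and 2.92%. By the median cell platelet-like cells were lower in blood, with 2.17% and 1.10% against 3.80% and 2.55% in neutrophil-like cells. Within T cells, CD8 naive-like cells had 36.5%, 36.8%, 40.2% and 38.3% and CD4 naive-like cells had 32.9%, 34.7%, 37.7% and 35.5%. CD8 effector-like cells had 31.1% in lung metastasis, 30.3% in lung sham and 34.6% in blood sham. In lung sham, the only library with 50 of them, CD4 effector-like cells had 20.3%. NK cell-like cells had 16.4%, 15.5%, 21.2% and 18.6%, classical monocyte-like cells 17.9% in lung metastasis and 19.3% and 18.8% in blood, and non-classical monocyte-like cells 14.3%, 13.5%, 14.8% and 12.4%. The ranges of single cells overlapped between neighbouring classes, such as NK cell-like and classical monocyte-like cells, and did not overlap between T cell-like and neutrophil-like cells from the 10th to the 90th percentile.

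**Figure D1:**
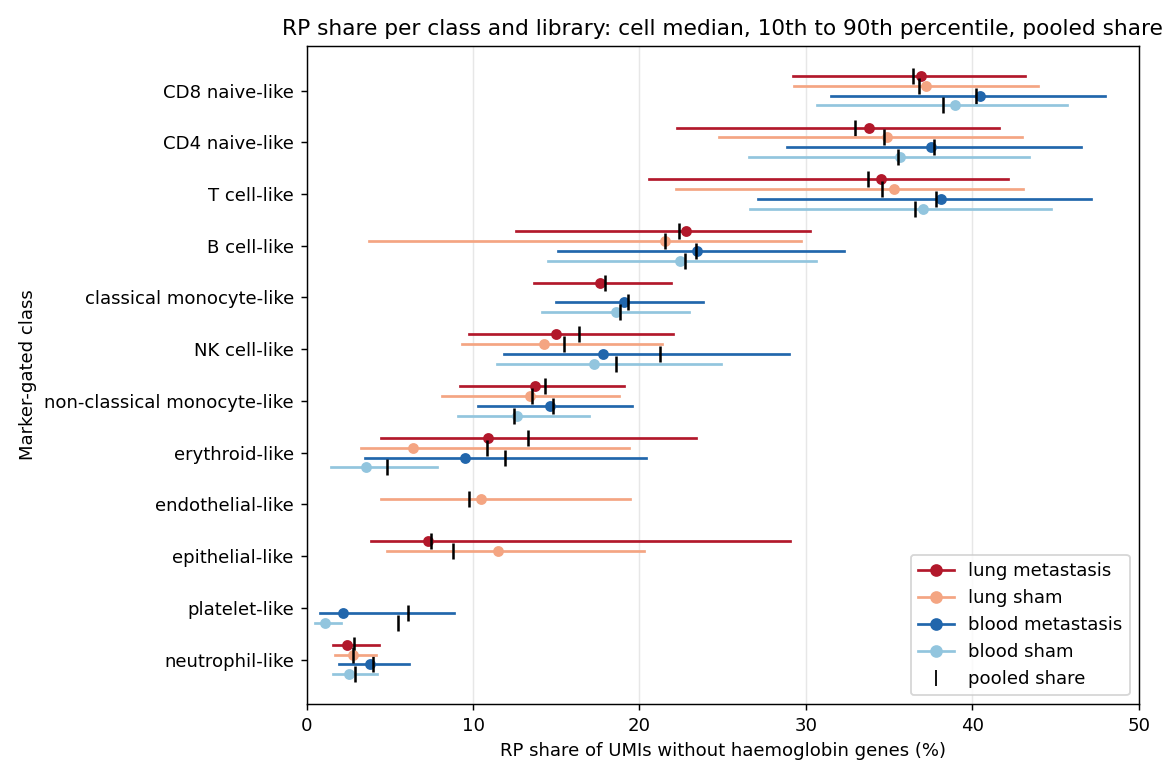
The horizontal axis is the share of UMIs without haemoglobin genes that came from the 86 ribosomal protein (RP) genes, in percent, for each class and library with at least 50 cells. Points are the median of cells, lines run from the 10th to the 90th percentile of cells and black ticks are the share of the pooled UMIs. T cell-like cells sit above 33% and neutrophil-like cells below 4% in all 4 libraries.

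Over whole libraries the set took 19.8%, 26.7%, 15.7% and 24.9% of UMIs, which is lower in the metastasis library of each tissue. The libraries also differed in their cells: neutrophil-like cells numbered 1280, 51, 2419 and 434 and erythroid-like cells 5419, 775, 3048 and 245. The part of these numbers in the whole-library shares was not tested. With haemoglobin counted, the whole-library shares were 7.24%, 20.2%, 6.05% and 22.3%.

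B cell-like cells of the lung held a tail of cells with few ribosomal protein UMIs. Cells under 8% made up 7.29% and 11.99% of the B cell-like cells of lung metastasis and lung sham, and 1.92% and 1.85% in blood. Those low cells were shallower and richer in mitochondrial UMIs: in lung sham they had a median of 1088 UMIs and 7.63% mitochondrial UMIs, against 2276 and 4.11% in the other B cell-like cells. In lung metastasis the mitochondrial medians were 6.59% against 3.36%. The part of cell quality in the low shares was not tested.

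In blood neutrophil-like cells the share of the set was higher in metastasis than in sham, 3.99% against 2.92%, a ratio of 1.37 (95% interval 1.35 to 1.38). The median cell had 94 ribosomal protein UMIs and 2397 other UMIs in metastasis, and 78 and 2878.5 in sham. The median of all 5665 measured genes was near equality, at a log2 ratio of -0.02. In lung neutrophil-like cells the pooled shares were 2.88% and 2.78%, a ratio of 1.03 (0.997 to 1.07), while the median cell went the other way, with 2.46% and 2.79%, as did the wide gate described next, with a log2 ratio of -0.036. The lung sham group had 51 cells, just past the minimum of 50.

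The blood neutrophil ratio depended on which cells were counted. A wider gate, added after the data were seen, also takes cells that hold both neutrophil and monocyte markers. It brought in 63 metastasis and 37 sham cells in which the set took 12.7% and 11.5% of UMIs, and with them the pooled shares became 4.76% and 4.92%, a log2 ratio of -0.047 in place of 0.45. The medians of cells under the wide gate stayed apart, at 3.84% and 2.62%. Without cells that held 2 or more UMIs of the platelet genes Pf4 and Ppbp, which were 40.8% and 38.7% of the 2 groups, the log2 ratio was 0.31.

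The arms also differed in the maturity of blood neutrophil-like cells. Of the 2419 metastasis cells, 1189 were rich in transcripts of granule proteins, which immature neutrophils make, while 424 of the 434 sham cells were granule-poor. Granule-rich cells had a larger share of the set than granule-poor cells in blood metastasis, 4.20% against 3.62%, and a smaller one in lung metastasis, 2.59% against 3.34%. Among granule-poor cells alone the blood arms had 3.62% and 2.95%, a ratio of 1.23 (1.21 to 1.24). By pooled UMIs the higher share in metastasis was therefore smaller in granule-poor cells, and below the 25% used to call a set ratio. Their median cell had 3.47% and 2.56%, and the mean over cells was 3.78% and 2.90%, both past that mark. Summed B cell markers stood at 28.2 CPM in metastasis and 189 in sham, T cell markers at 48.2 and 19.7, platelet markers at 3601 and 1088, and classical monocyte markers, which include the granule gene Chil3, at 1996 and 243. All 8 platelet markers and 10 and 9 of the 10 B cell markers had UMIs there, while 7 of 10 T cell markers did in each arm, with Cd3e and Themis at 0 in both. The part of RNA from these cells in the set's share was not tested.

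Erythroid-like cells were those with at least 50% haemoglobin UMIs that reached no leukocyte or tissue list. In them the pooled share of the set was also higher in metastasis. Blood had 11.9% and 4.86%, a ratio of 2.45 (2.41 to 2.50), and lung 13.3% and 10.8%, a ratio of 1.23 (1.22 to 1.24). In blood the median of all 1232 measured genes was itself at a log2 ratio of 1.00, against 1.29 for the summed set and 1.24 for the median member. In lung the summed set stood at 0.30 and the median of 2103 measured genes at 0.05, but the median member was at -0.03 and 39 of 80 members were positive. The lung ratio also turned with the cells kept: it was -0.23 with at least 400 genes and at most 5% mitochondrial UMIs, -0.13 in cells between 1000 and 5000 UMIs and -0.0131 with 1 more marker. Summed T cell markers were at 63.1, 672, 16.6 and 93.2 CPM in erythroid-like cells and summed B cell markers at 56.6, 452, 28.4 and 452, higher in the sham libraries in each tissue. Cd3e and Cd5 were at 0 in blood sham, and all 10 T cell markers had UMIs in both lung libraries. Summed neutrophil markers stood the other way, at 362, 62.7, 393 and 74.5 CPM, with 7 of 10 at 0 in blood sham. Platelet markers stood at 1284 CPM in blood metastasis and 5064 in blood sham with all 8 present, and at 5.08 and 5.54 in lung with 6 and 7 of 8 at 0. NK cell markers stood at 44.8, 432, 2.97 and 14.0 CPM. Their part in the ratios was not tested.

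**Figure D2:**
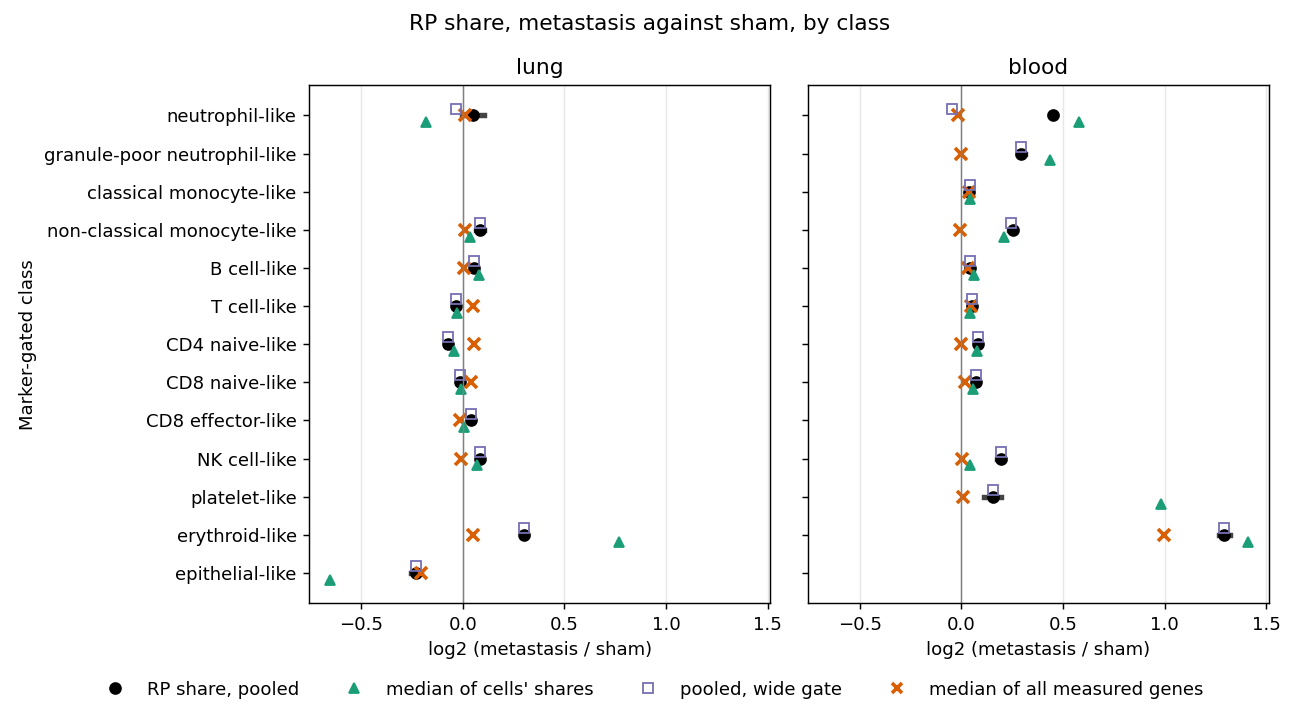
The horizontal axes are the log2 ratio of metastasis to sham in lung and in blood, for each class with at least 50 cells in both arms. Circles are the RP share of pooled UMIs with the 95% counting interval, triangles the ratio of the medians of cells, squares the pooled share under the wide gate and crosses the median of all measured genes. Blood neutrophil-like cells are at 0.45 pooled and at -0.047 under the wide gate, and blood erythroid-like cells at 1.29 with the median gene at 1.00.

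The pooled shares of the other classes stayed within 25% between arms. The ratio of pooled shares was 1.19 (1.18 to 1.20) in blood non-classical monocyte-like cells, 1.14 (1.13 to 1.16) in blood NK cell-like cells, of which metastasis had 51, and 1.11 (1.08 to 1.15) in platelet-like cells. Platelet-like cells had 6.10% and 5.49% pooled, but the median cell had 2.17% and 1.10%, so the pooled values lay above the median cell. The log2 ratio of platelet-like cells was 0.15 pooled, 0.98 by the median cell, 1.28 by the mean over cells, 0.69 with doublets kept and -0.19 with 1 more marker. In B cell-like cells the ratio was 1.04 in lung and 1.03 in blood, and in classical monocyte-like cells of blood 1.02. T cell-like cells had 0.975 in lung and 1.04 in blood. Lung epithelial-like cells had 7.50% and 8.81%, a log2 ratio of -0.23 beside a median of -0.21 over all 301 measured genes. Their median cell had 7.32% and 11.5%, a log2 ratio of -0.65.

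Next, each member was set against the summed set, as its log2 ratio of metastasis to sham minus that of the set. A member was called apart when it had at least 100 UMIs over both libraries, lay at least 1.5-fold from the set and had a 95% interval that did not reach the set. By this rule no member was called in lung or blood B cell-like and T cell-like cells, in NK cell-like or non-classical monocyte-like cells of either tissue, in classical monocyte-like cells of blood, or in lung epithelial-like cells. Of all measured genes the same rule, in either direction, called 2.39%, 3.05%, 2.5%, 7.4% and 18.9% in lung B cell-like, T cell-like, NK cell-like, non-classical monocyte-like and epithelial-like cells. In blood it called 4.62%, 5.03%, 9.6%, 9.14% and 19.4% in B cell-like, T cell-like, NK cell-like, classical monocyte-like and non-classical monocyte-like cells. In T cell subclasses no member was called in lung CD4 naive-like (4.96% of genes), CD8 naive-like (2.98%) and CD8 effector-like cells (9.31%) or in blood CD4 naive-like cells (6.72%). In lung T cell-like cells the 83 measured members ran from -0.21 for Rps27l to 0.22 for Rpl29, a narrow spread. In CD8 naive-like cells of blood, 1 of 83 members was called: Rps27l, with 47 UMIs in metastasis and 466 in sham, stood at 51.8 and 81.2 CPM and -0.72 from the set (-1.18 to -0.28), where the background was 3.56% of genes lower. Rps27l, a close paralog of Rps27 that p53 is known to induce, was also the lowest member in T cell-like cells of blood, at -0.35.

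In blood neutrophil-like cells 39 of 83 measured members were at least 1.5-fold higher in metastasis than in sham with an interval that excluded equality (background 17.2% of 5665 genes), and 1 was lower (17.6%). Against the set, 5 stood above (7.13%) and 5 below (41.3%). The shares against the set cannot be read as a result about the members, which scatter around their own sum. The set stood at a log2 ratio of 0.45 and the median gene at -0.02, so the reference itself put many genes below the set. Of the small subunit, the X-linked Rps4x had 364 CPM in metastasis and 143 in sham, and in lung 220 and 265, the other order. Its log2 ratio minus the set was 0.90 (0.69 to 1.12). Rps20 stood at 291 and 117 CPM (0.87), and Rpsa, a small-subunit protein also known as the laminin receptor precursor, at 278 and 125 CPM (0.71). Of the large subunit, Rpl35 (144 and 67.8 CPM, 0.63) and Rpl14 (170 and 80.9 CPM, 0.62) were above the set.

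Below the set stood Rpl22l1 and Rpl3 and the small proteins Rpl37, Rpl36a and Rps28. Rpl22l1, the paralog of Rpl22, had 44.0 CPM in metastasis and 72.9 in sham, -1.18 from the set (-1.51 to -0.84). Rpl3, which lines the peptidyl transferase centre, had 51.2 and 73.6 CPM (-0.97). Rpl37 had 831 and 1051 CPM (-0.79), Rpl36a 60.0 and 72.9 CPM (-0.73) and Rps28 198 and 219 CPM (-0.60). All 5 had lower CPM in metastasis while the sum of the set was higher, and the intervals of Rpl36a and Rps28 included equality. Under the wide gate Rpsa (-0.029) and Rpl35 (-0.082) fell on the other side of the set. Among granule-poor cells 1 member stood above the set, Rpl14 at 0.97 (background 6.18%), and 3 below, Rpl22l1 at -1.15, Rpl3 at -1.01 and Rpl36a at -0.71 (25.2%).

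In lung neutrophil-like cells the sham group gave few UMIs, 2937 for the whole set. Compared with equality 5 members were higher (background 3.94%) and 2 lower (6.19%), and against the set 5 of 78 stood above (3.45%) and 4 below (7.47%). Rps6, the substrate of the S6 kinases, had 554 UMIs in metastasis and 11 in sham, 222 and 104 CPM, 1.04 from the set with an interval from 0.19 to 2.05. Rps2 (0.88), Rps3a1 (0.71), Rpl9 (0.68) and Rpl11 (0.61), which with Rpl5 can bind Mdm2, were the others above it. Rpl12, a protein of the stalk base, had 97.4 and 227 CPM (-1.27), and Rpl14 (-0.93) and Rps20 (-0.82) were also below. Of the 9 calls in lung and the 10 in blood, 0 were shared in the same direction, and Rpl14 and Rps20, 2.56% of the members, were called in opposite directions. Of 2557 genes outside the set measured in both tissues, 0.939% were above the set in both, 5.32% below it in both and 1.02% on opposite sides. At the edge of the rule were Rpl11, called with an interval from 0.003 to 1.29, and Rpl3 at -0.64, not called with one from -1.56 to 0.45.

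Erythroid-like cells were where members parted most from the set. In blood 65 of 80 measured members were higher in metastasis (background 53.8% of 1232 genes) and 1 was lower (13.6%), with 15 above the set (16.6%) and 18 below (37.3%). In lung 21 were higher (28.3% of 2103 genes) and 10 lower (27.5%), with 8 above the set (19.1%) and 26 below (35.6%). The shares of members called were near or below the background in each of these except for the members higher in blood. Those against the set are no result about the members, which scatter around their own sum. The set stood above the median gene in both tissues, at 1.29 beside 1.00 in blood and 0.30 beside 0.05 in lung.

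The highest members against the set were Rps2, which lies at the mRNA entry of the small subunit, and Rpsa. Rps2 had 7518, 1222, 4625 and 550 CPM, and its log2 ratio minus the set was 2.32 in lung and 1.78 in blood. Rpsa had 4214, 1288, 3651 and 321 CPM, 1.41 in lung and 2.21 in blood. For both genes each metastasis library was above each sham library. Rpl41, the shortest ribosomal protein, had 14006, 4995, 13229 and 3634 CPM, 1.19 from the set in lung. In lung Rpl10 (1.09), Rpl35 (1.04) and Rpl29 (1.02) followed, and in blood Rpl29 (1.30), Rpl36al (1.20), Rpl3 (1.14) and Rpl10a (1.10).

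The lowest member in both tissues was Rps27, a zinc finger protein of the small subunit. It had 414, 2006, 350 and 592 CPM, lower in each metastasis library, and lay -2.58 (-2.69 to -2.47) from the set in lung and -2.05 (-2.32 to -1.77) in blood. In lung Rps18 (542 and 1406 CPM, -1.68), Rpl18 (370 and 945 CPM, -1.66), Rpl30 (567 and 1341 CPM, -1.54), Rpl9 (-1.14) and Rpl13a (-1.13) were next. In blood Rpl22 (-1.52), Rps28 (-1.25), Rps29 (-1.19), Rpl30 (-1.13) and Rpl18 (-1.09) were next. Rps29 stood nearly level in blood, at 2472 and 2292 CPM, and was low only against the set.

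The erythroid calls of the tissues overlapped in part, as did those of other genes. Rpl10, Rpl29, Rpl35, Rps2 and Rpsa were above the set in both, which is 62.5% of those above it in lung and 33.3% of those in blood. Below it in both were 12 members, among them Rpl5, Rpl18, Rpl22, Rpl30, Rpl37a, Rps7, Rps12, Rps13, Rps16, Rps19 and Rps27, which is 46.2% of the lung and 66.7% of the blood members. Of 1099 genes outside the set measured in both tissues, 10.2% were above it in both and 15.7% below it in both, against 6.25% and 15% of the 80 members. Rpl3 alone was called in opposite directions, at 508 and 627 CPM in lung (-0.61) and 782 and 144 in blood (1.14). Of the 1099 genes outside the set, 3.73% were called in opposite directions, a larger share than 1 of the 80 members. Summed lymphocyte markers were higher in both sham erythroid groups, as given above. The part of lymphocyte RNA in these differences was not tested.

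**Figure D3:**
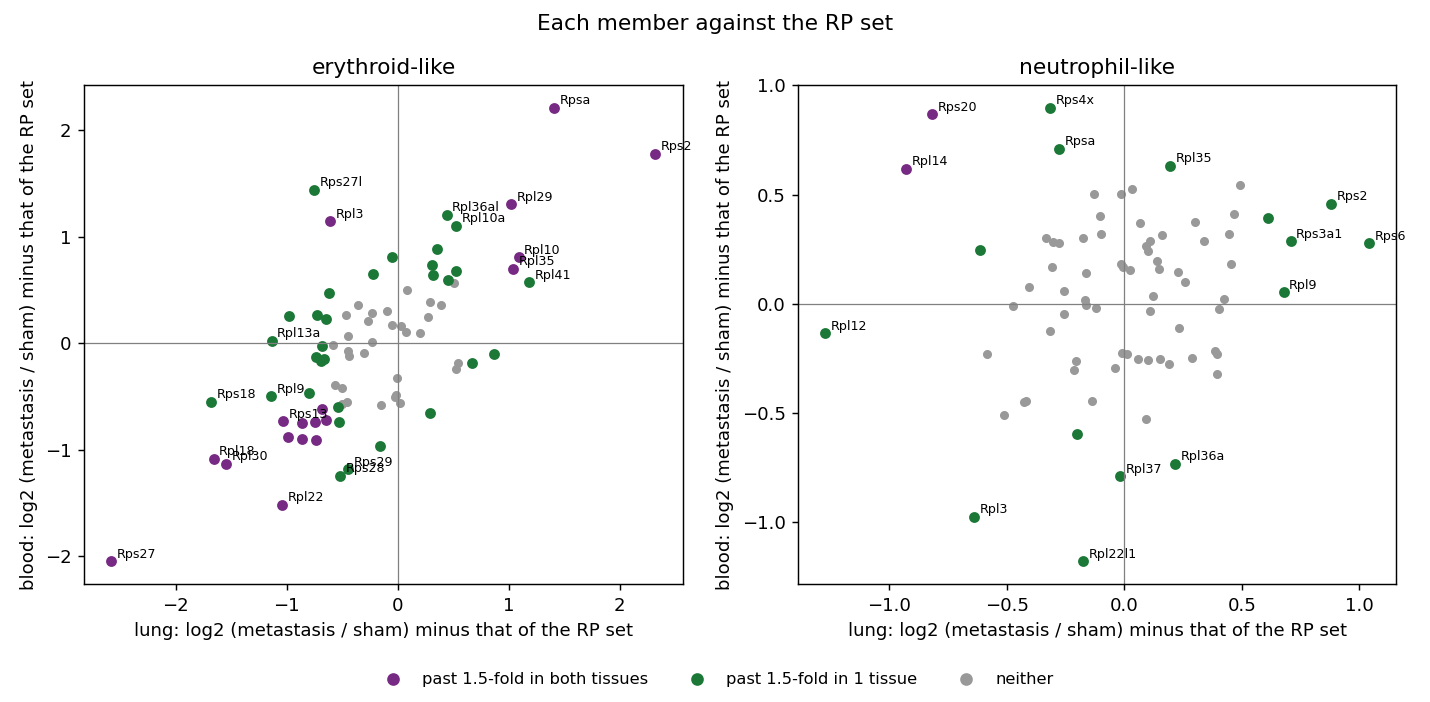
Each point is 1 member with at least 100 UMIs in both tissues' comparisons, with its log2 ratio of metastasis to sham minus that of the RP set in lung (horizontal) and in blood (vertical), for erythroid-like and neutrophil-like cells; names are given for members far from 0. Rps2 and Rpsa lie at the upper right and Rps27 at the lower left in erythroid-like cells, while in neutrophil-like cells Rps20 and Rpl14 lie at the upper left, below the set in lung and above it in blood.

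In platelet-like cells of blood 7 of 73 members were higher (background 18%) and 2 lower (16.7%), and 5 stood above the set (15%) and 5 below (23.2%). Rpl41 had 295 and 305 UMIs, 2793 and 1365 CPM (0.88), with Rps2 (0.85), Rpl6 (0.77), Rpl29 (0.76) and the stalk protein Rplp0 (0.63) beside it. Rps28 (-1.09), Rpl37 (-0.89), Rpl22 (-0.61) and Rps7 (-0.60) were among those below. In blood non-classical monocyte-like cells 5 of 81 members were higher by 1.5-fold (background 5.43%), Rpl22l1, Rpl24, Rpl18, Rps9 and Rpl10, and none of these was called against the set.

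The make-up of the set was then compared between classes within each library, as each member's share of the ribosomal protein UMIs over the median of the other classes. A direction was called where the share was 2-fold or more away in every library with 50 cells of the class. The background passed all other genes through the same rule, as shares of UMIs outside the set and haemoglobin, and so holds the genes that mark each class. In neutrophil-like cells 3 of 83 members were higher (background 10.4% of genes) and 4 lower (14.7%). Rps9 (chr7:3703993-3706897, GRCm38), a small-subunit protein needed early in assembly, made up 6.95%, 6.67%, 6.44% and 7.68% of the set's UMIs, against medians of 1.34% to 1.67% in the other classes. Its share of the set's UMIs was 4.16-fold to 4.97-fold higher in the 4 libraries. The folds here and below are of shares of the set, which took only 2.78% to 3.99% of UMIs in neutrophil-like cells. They do not show that a member had more CPM there than in other classes. The lung sham value rests on 196 UMIs, with an interval from 5.80% to 7.64%.

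Rps27a (chr11:29545846-29548109), which is made as a fusion of ubiquitin and a small-subunit protein, made up 4.64%, 4.43%, 5.98% and 4.62% in neutrophil-like cells and was 2.96-fold to 4.03-fold higher. Rpl41 (chr10:128548114-128549305) made up 3.38%, 2.52%, 2.69% and 2.65% and was 2.01-fold to 2.49-fold higher. The annotation places Clhc1 on the other strand across Rps27a, while the genes nearest Rps9 are Tsen34 and, on the other strand 4512 bases away, Pirb, an immune receptor gene. Rps9 and Rps27a kept their call under the wide gate, and Rpl41 lost it.

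Lower in neutrophil-like cells were Rps18, Rpl10a, Rpl36a and Rpl36al. Rps18, of the head of the small subunit, made up 0.422%, 0.477%, 0.511% and 0.415% of the set's UMIs there, against 1.52% to 1.67% in the other classes. Rpl10a made up 0.256%, 0.306%, 0.176% and 0.182%, 0.225-fold to 0.453-fold the median of other classes, with 9 UMIs in lung sham. Rpl36a and its paralog Rpl36al, which contact the exit site, were 0.289-fold to 0.494-fold and 0.235-fold to 0.337-fold, with 5 and 2 UMIs in lung sham. All 4 calls were lost under the wide gate, and lung sham on its own, where none of the 4 reached 100 UMIs, called 0 members lower.

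Rpl41 was the member called higher in erythroid-like cells, 1 of 80 (background 13.2%). It made up 10.5%, 4.62%, 11.1% and 7.48% of the set's UMIs and was 3.68-fold to 8.91-fold higher than in the other classes. Members called lower there were 0 of 80 (background 23.6%). In epithelial-like cells of lung Rps27l was higher, 1 of 80 (25.3%), with 0.256% and 0.252%.

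**Figure D4:**
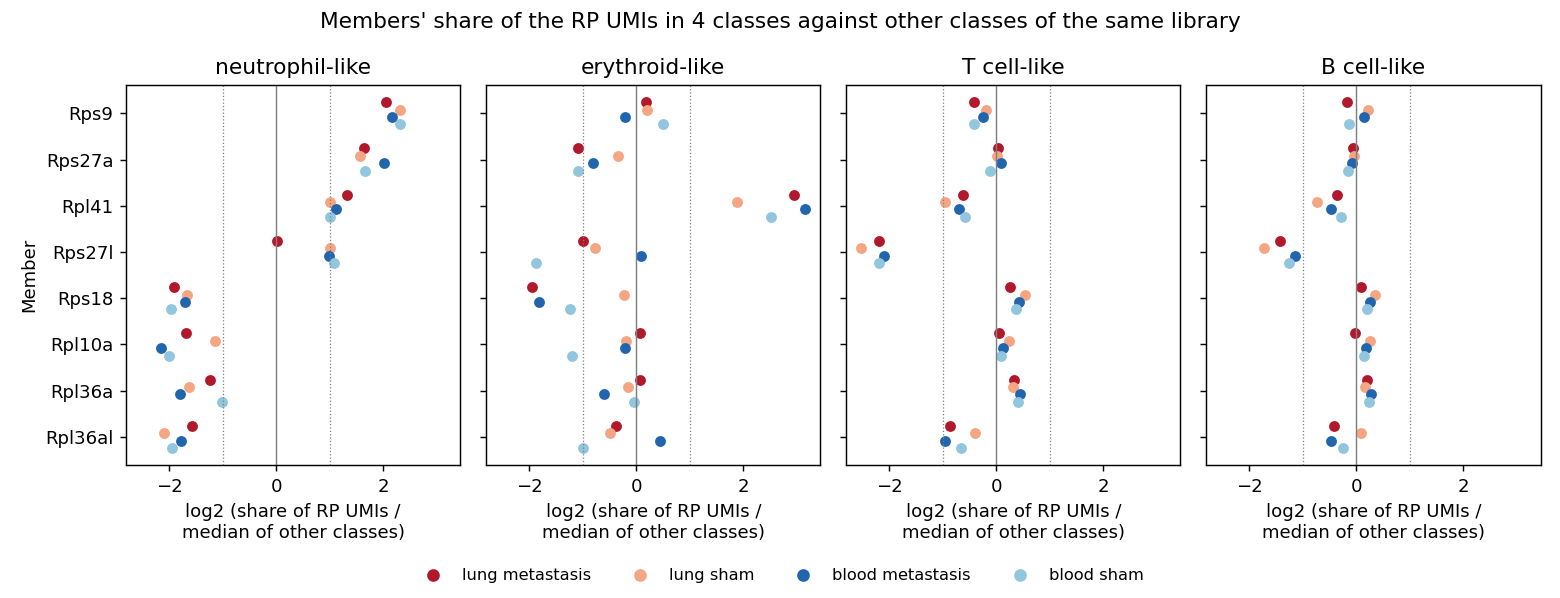
Log2 of a member's share of the RP UMIs over the median of the other classes of the same library, for 8 members in 4 classes, 1 point per library. Dotted lines mark 2-fold. Rps9 and Rps27a are past the line in all 4 libraries of neutrophil-like cells and Rpl41 in all 4 of erythroid-like cells, and Rps27l is below it in T cell-like and B cell-like cells.

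In T cell-like cells 3 of 83 members were lower (background 1.3%): Rps27l with 0.0264%, 0.0306%, 0.0182% and 0.0232% of the set's UMIs, 0.174-fold to 0.234-fold the other classes, Rpl7l1 (0.372-fold to 0.434-fold) and Rps19bp1 (0.403-fold to 0.499-fold), which lost its call under the wide gate. These are shares of the set's UMIs, which are most abundant in T cell-like cells, and CPM gave another order for some classes: Rps27l had 89.0, 106, 68.9 and 84.9 CPM in T cell-like cells and 34.9, 66.3, 58.1 and 51.7 in neutrophil-like cells. Rps19bp1 had 20.9, 22.9, 26.1 and 22.8 CPM in T cell-like cells, against 4.01, 3.54 and 3.64 in neutrophil-like cells of lung metastasis and blood and 0 UMIs in lung sham. In B cell-like cells 1 of 83 was lower (1.37%), again Rps27l, with 0.0453%, 0.0534%, 0.0351% and 0.0443%. No member was called higher in T cell-like (background 21.1%) or B cell-like cells (22.4%) or lower in epithelial-like cells (16.7%). None was called in either direction in classical monocyte-like (21.4% higher and 0.52% lower), non-classical monocyte-like (24% and 0.145%), NK cell-like (10.2% and 0.394%), platelet-like (65.9% and 3.56%) or endothelial-like cells (57.4% and 2.94%).

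As a share of the pair Rps27l and Rps27, Rps27l was 1.23%, 1.30%, 0.880% and 0.987% in T cell-like cells and 11.8%, 11.8% and 9.35% in classical monocyte-like cells of lung metastasis, blood metastasis and blood sham. In erythroid-like cells it was 16.3%, 5.23%, 21.0% and 2.31%, with 3 Rps27l UMIs in blood sham. Rpl22l1 as a share of Rpl22l1 and Rpl22 was 24.4%, 24.1%, 24.2% and 23.4% in B cell-like cells and 30.1%, 30.7%, 28.4% and 28.9% in T cell-like cells, so the libraries were close within each class. In neutrophil-like cells it was 38.0%, 31.6%, 25.02% and 39.2%, and the blood intervals, 22.6% to 27.5% and 33.2% to 45.5%, did not overlap. Rpl36al was 25.1% to 27.2% of the pair with Rpl36a in T cell-like cells and 55.5% to 61.7% in classical monocyte-like cells. Rps27rt is a retrogene nearly identical to Rps27, and its 1.59% to 6.41% of their pair over the classes (the highest from 5 UMIs in platelet-like cells) is uncertain, since the counting could have split reads between them.

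Rpl3l, the paralog of Rpl3 known from heart and skeletal muscle (chr17:24727820-24736143, + strand), had 367 UMIs in all and was found mainly in myeloid cells. It stood at 15.6, 9.48, 14.6 and 16.03 CPM in neutrophil-like and at 43.6, 16.7, 65.0 and 43.6 CPM in non-classical monocyte-like cells. In neutrophil-like cells 2.81%, 1.96%, 3.89% and 4.61% of cells had a UMI of it, and in blood non-classical monocyte-like cells 24.6% and 21.2%, at median depths of 4648 and 5058 UMIs. In B cell-like cells, which served as the background, it was in 1 of 2153, 3 of 4722, 0 of 1767 and 1 of 8015 cells, at median depths of 1694 to 3447 UMIs, against 1542 to 2945 in neutrophil-like cells. The 0 of 1767 allows up to 0.170% of cells with a UMI by 3 counts, and 0.209% by the exact interval, which limits cells with a UMI and not cells that express the gene. Its share of the pair with Rpl3 was 19.9%, 9.09%, 22.2% and 17.9% in neutrophil-like cells.

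Msrb1, a selenoprotein gene, starts 499 bases downstream of Rpl3l on the same strand and was high in the same classes, at 1658, 1412, 1814 and 2328 CPM in neutrophil-like cells and 29.7 to 31.0 CPM in B cell-like cells. Of the neutrophil-like cells with Rpl3l, 32 of 36, 0 of 1, 93 of 94 and 20 of 20 also held Msrb1. Of all neutrophil-like cells 91.4%, 84.3%, 94.7% and 95.9% held it, so these counts are near what all such cells show. The part of reads from Msrb1 transcripts in the Rpl3l counts was not tested. Rpl39l, a testis paralog of Rpl39, had 86 UMIs in all and 0 in neutrophil-like cells of any library.

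Summed by subunit, erythroid-like cells were poorest in the small subunit and richest in the stalk in each library. Small-subunit genes made up 37.4%, 41.9%, 34.9% and 36.6% of the set's UMIs there, against 47.1% to 47.5% in T cell-like and 48.0% to 49.7% in neutrophil-like cells. The stalk proteins Rplp0, Rplp1 and Rplp2, which recruit translation factors, made up 8.89%, 6.53%, 8.86% and 9.39% in erythroid-like cells, 5.08% to 5.31% in T cell-like, 3.61% to 3.91% in B cell-like and 3.79% to 4.39% in neutrophil-like cells. The ranges of erythroid-like cells did not overlap those of these 3 classes. Rpl41, a large-subunit gene, alone made up 10.5%, 4.62%, 11.1% and 7.48% of the set's UMIs in erythroid-like cells. Its part in their low small-subunit share was not tested. Platelet-like cells of blood stood nearer, with 39.8% and 43.8% small subunit and 6.08% and 4.66% stalk in metastasis and sham. Their 39.8% lies within the range of erythroid-like cells over the libraries. Epithelial-like cells of lung had 42.2% and 42.9% small subunit and 4.92% and 4.85% stalk.

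Small shifts of members followed the length of the coding sequence, in lymphocytes and in some other classes. Over the 78 members outside the paralog list, Spearman's rho between coding length and the log2 ratio minus the set was 0.82 in lung T cell-like, 0.77 in lung B cell-like, 0.64 in lung NK cell-like, 0.66 in blood T cell-like and 0.58 in blood B cell-like cells. Pearson's r with log2 coding length was 0.66, 0.61, 0.53, 0.61 and 0.59 in the same order. Blood NK cell-like cells had a rho of 0.52. Non-classical monocyte-like cells had 0.56 in lung and 0.38 in blood, and classical monocyte-like cells of blood 0.47. In lung T cell-like cells the median log2 ratio minus the set was -0.06 for members shorter than 454.5 coding bases and 0.07 for the longer ones. Rps29, with 168 coding bases, had 7996 and 9024 CPM in lung and 8464 and 9522 in blood T cell-like cells, lower in both metastasis libraries. Rps4x, with 789, had 5157 and 4742 CPM in lung and 5579 and 4495 in blood, higher in both. The members share their libraries and depth, so the values describe these libraries, and a difference between library preparations cannot be told apart from one between arms. In neutrophil-like cells rho was 0.27 in lung and 0.29 in blood, and over all classes and subclasses compared it ran from 0.070 in granule-poor neutrophil-like cells of blood to 0.82.

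**Figure D5:**
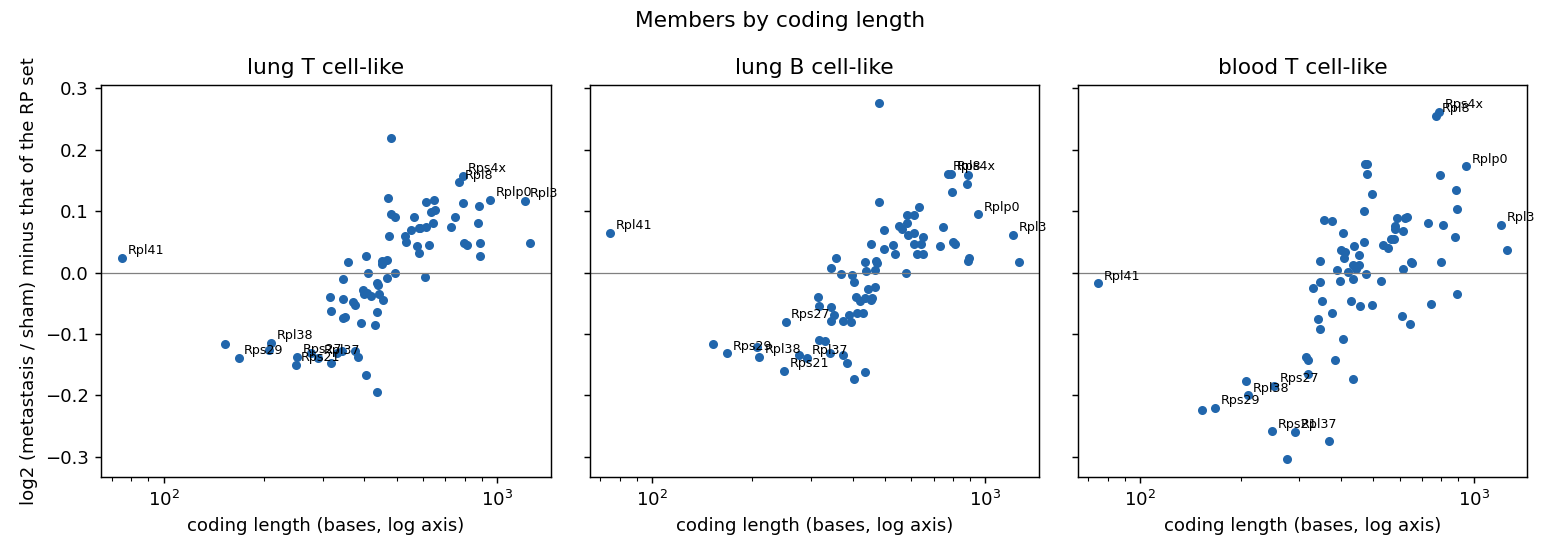
Coding length in bases (log axis) against the log2 ratio of metastasis to sham minus that of the RP set, 1 point per member, in T cell-like and B cell-like cells of lung and T cell-like cells of blood. Short members such as Rps29 and Rpl38 lie below 0 and long ones such as Rps4x and Rplp0 above it in each panel.

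Other genes of the pathway were read from 6 lists, at 1.5-fold or more from equality with an interval that excluded it. In blood neutrophil-like cells the background was 17.2% of genes higher and 17.6% lower. In blood neutrophil-like cells, TOP mRNA genes outside the set had 1 higher and 3 lower of 21 measured, with a median log2 ratio of 0.04 beside -0.02 for all genes. The elongation factor genes Eef1d (-0.95) and Eef1g (-0.79) and the histone chaperone gene Nap1l1 (-0.82) were lower and the initiation factor gene Eif3f (0.63) higher. Initiation factors had 6 higher and 1 lower of 28 (median 0.20), which is near the background, led by Eif3c (1.45), Eif3k (1.22) and Eif6 (1.20), which keeps the subunits apart. Mitochondrial ribosomal proteins had 10 higher and 1 lower of 31 (median 0.51), with Mrpl41 at 1.71, Mrps18c at 1.49 and Mrps28 at -1.32. Of those 10, 4 would not have reached the minimum of 100 UMIs with both libraries at the lower level, so they could pass it only by differing. Ribosome biogenesis genes had 1 higher and 2 lower of 9 (median 0.10), and recycling and turnover genes 2 and 1 of 11 (median 0.28).

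Genes that control ribosome synthesis had 6 higher and 2 lower of 18 in blood neutrophil-like cells (background 17.2% and 17.6%), with a median of 0.41. Of the 6, 2 could reach the minimum of 100 UMIs only by being higher in metastasis, Rptor and Tsc1, so their calls and the median lean on that filter. Rptor, the substrate-binding subunit of mTOR complex 1, had 280 UMIs in metastasis and 10 in sham, 39.7 and 7.29 CPM, a log2 ratio of 2.45 (1.55 to 3.52). Tsc1, an inhibitor of that complex, was higher as well, at 15.0 and 6.56 CPM (1.20), as was Maf1, a repressor of RNA polymerase III (0.77), while Mxi1, an antagonist of Myc, was lower, at 145 and 252 CPM (-0.80).

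In erythroid-like cells the background was 53.8% of genes higher and 13.6% lower in blood and 28.3% and 27.5% in lung. Initiation factors had 13 higher and 0 lower of 17 in blood, with a median of 1.89 beside 1.00 for all genes, and 9 higher and 4 lower of 20 in lung, 0.50 beside 0.05. Of the 13, 6 could reach 100 UMIs only by being higher in metastasis. Eif2s2, a subunit of the factor that brings the first tRNA, had 1955 and 12 UMIs in blood (3.89). TOP mRNA genes outside the set had 10 higher and 1 lower of 14 in blood (median 0.94) and 2 higher and 7 lower of 20 in lung (-0.26), where Npm1, a nucleolar chaperone gene, had 72.3 and 190 CPM (-1.39). Of the turnover genes 0 of 4 were called in blood. Ube2o, the ubiquitin ligase that drives ribosome removal in reticulocytes, had 1964 and 2315 CPM there (-0.24), against a set that was higher. In B cell-like and T cell-like cells the medians of the TOP list lay between 0.01 and 0.10 over both tissues, and Rack1 and Fau, which encode ribosomal proteins that the naming rule leaves out, were among them.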

How the data were processed

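The authors deposited raw UMI counts per gene and barcode in 1 matrix per library, with no normalisation. Per the file headers Cell Ranger 7.0.0 made them, and the submitters' processing notes name R 4.3.1, Seurat 4.3.0.1 and GRCm38.p6 without their roles. How intronic reads were treated is not stated in the labels or headers. Accounts of the CD45 enrichment differ, with kits in the design text and density centrifugation of blood in the protocols, and they do not say which was used on which tissue. The smallest barcode had 500 UMIs.

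Barcodes with at least 200 genes, at most 10% mitochondrial UMIs and a Scrublet score up to 0.3 (scanpy 1.11.5, expected doublets 10%) were kept, which removed 394, 689, 114 and 755 doublets. Cells were gated on marker lists, and 142, 187, 179 and 288 cells that reached more than 1 list without the margin within 1 lineage were left ambiguous. Counts were summed per class and library. Ratios carry exact conditional binomial 95% intervals and shares exact Clopper-Pearson ones. Intervals and limits cover counting error only. For a gene with 0 UMIs 3 counts served as the limit of detection. To call a member higher between classes, the median of the other classes was taken as no lower than 3 counts. Ratios between arms used no floor. The script was checked on simulated data.

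Named members are up to 6 in each direction per class and tissue by the rules in the text, the paralogs and a fixed group that holds the stalk proteins, Rps6, Rpsa, Rpl5 and Rpl11; list genes are the 4 largest ratios per list. A few genes that these rules name are counted but not reported here by name. Members, lists, gates and rules were chosen with earlier results of these data known. Alternatives changed the cell filter, doublets, gates, UMI minimum, fold, summary over cells and haemoglobin treatment.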

Additional observations from a re-analysis of the deposited data

Results flagged for a closer look

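Effects of opposite sign in lung and blood were marked for a closer look, and the difference between the tissues was not tested, since each arm had 1 library. In neutrophil-like cells Rps20 lay at -0.82 from the set in lung and 0.87 in blood, and Rpl14 at -0.93 and 0.62, with 14 Rpl14 and 30 Rps20 UMIs in lung sham. In erythroid-like cells Rpl3 lay at -0.61 in lung and 1.14 in blood, with 31 UMIs in blood sham. It was 1 of 80 members with opposite calls there, a smaller share than the 3.73% of 1099 genes outside the set. The log2 ratio of the set's share was -0.04 in lung and 0.05 in blood in T cell-like cells, -0.07 and 0.08 in CD4 naive-like cells and -0.01 and 0.07 in CD8 naive-like cells, all small. Of all UMIs the blood ratio turned to -0.0271 in T cell-like and -0.0158 in CD8 naive-like cells.

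Barcodes under 200 genes, made up mainly of haemoglobin, were used in no comparison. Without haemoglobin the set took 11.96% of their UMIs in lung metastasis against 10.59% in lung sham and 5.11% in blood metastasis against 3.97% in blood sham, so the metastasis library was higher in each tissue.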

How the results depend on the processing

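No paired analysis was possible because each group had 1 library without replicate numbers, and for the same reason no library was left out.

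Of 319 values of the set's log2 ratio under the alternatives, 289 kept their direction and side of a 25% difference and 17 reversed. The lung neutrophil-like ratio was -0.036 with the wide gate, and -0.37 and -0.18 as the mean and median over cells. The lung erythroid-like ratio was -0.23 with 400 genes and 5% mitochondrial UMIs, and -0.13 between 1000 and 5000 UMIs. It was -0.0131 with 1 more marker asked of the leukocyte and tissue lists, which widens this class. From 100 genes per barcode it was 0.55, of all UMIs 0.35, and as the mean and median over cells 0.36 and 0.77. Lung epithelial-like cells had -0.65 as a median and 0.14 without the 20 most abundant other genes. Of all UMIs the ratio was -0.12 in lung CD8 effector-like and, in blood, -0.0595 in classical monocyte-like, -0.12 in B cell-like, -0.0271 in T cell-like and -0.0158 in CD8 naive-like cells. Without the 20 most abundant genes it was -0.00834 in blood classical monocyte-like and -0.00164 in blood T cell-like cells, and without platelet UMIs -0.0258 in blood classical monocyte-like cells. The blood neutrophil-like ratio was 0.31 without cells with platelet UMIs, -0.047 with the wide gate and 0.32 of all UMIs. Platelet-like cells had -0.19 with 1 more marker, 0.69 with doublets kept, and 1.28 and 0.98 as the mean and median over cells. Blood granule-poor neutrophil-like cells had 0.38 between 1000 and 5000 UMIs, and 0.38 and 0.44 as the mean and median over cells.

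The counts that follow come without the share of all genes under each altered rule, so they show only how the counts move. Members above the set moved, in lung neutrophil-like cells, to 3 with the wide gate and 8 as a mean over cells. In blood neutrophil-like cells they were 2 with doublets kept, 3 without platelet UMIs, 1 with the wide gate, 3 against the members' median and 14 at a difference of 25% from the set. In lung erythroid-like cells they were 15 with 400 genes and 5% mitochondrial UMIs, 22 against the median and 17 at 25%, and in platelet-like cells 3 with doublets kept and 8 as a mean. Members below the set were, in lung neutrophil-like cells, 2 with doublets kept, 2 with 1 more marker, 2 with the wide gate and 13 as a mean, and in blood 11 at 25%. Erythroid-like cells had 10 in lung against the median and 40 at 25%, and 30 in blood at 25%. Platelet-like cells had 2 with doublets kept, 9 with 1 more marker, 3 against the median and 10 at 25%. The other classes together had 2 with the strict filter, 2 without haemoglobin-rich cells, 2 as a mean, 2 from 30 UMIs and 26 at 25%. Of 645 values of named members 600 kept their call, and with the wide gate Rpsa (-0.029) and Rpl35 (-0.082) reversed in blood neutrophil-like cells.

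Single libraries called more or fewer members between classes than all libraries together. The share of all genes called in single libraries is not given, so these counts show only how the calls depend on the libraries. Neutrophil-like cells had 6 higher in blood metastasis and 5 in blood sham, and 10, 0, 11 and 12 lower in the 4 libraries in turn, with 0 under the wide gate. Classical monocyte-like cells had 1 higher in each metastasis library, as did B cell-like cells with 1, and T cell-like cells had 1 in these and in blood sham. Platelet-like cells had 2 higher in blood metastasis. Erythroid-like cells had 7, 8 and 3 higher in lung metastasis, blood metastasis and blood sham and 14 and 15 lower in the metastasis libraries, and epithelial-like cells 0 higher in lung sham. Over all deposited barcodes the set took 18.8%, 24.99%, 14.4% and 23.9%, and of all UMIs 7.24%, 20.2%, 6.05% and 22.3%. The causes were not tested.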
